A study of Bos taurus with 90 samples.

Results

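The comparison described here was whether the liver of Charolais (CH) and Holstein-Friesian (HF) steers changed to a different extent between the first (H1) and the second (H2) high-concentrate phase of a feeding trial. Its members were all 66 libraries labelled H1 or H2, out of 90 in the series, and they were taken by label alone. There were 20 CH and 16 HF libraries under H1, and 17 CH and 13 HF libraries under H2. In the same order, 9, 7, 9 and 5 of these came from steers of low residual feed intake (RFI, the difference between actual and predicted intake, where a low value marks a feed-efficient animal), and the others from steers of high RFI. The steers belonged to a larger herd, and only the extremes of RFI within each breed and phase were sequenced.

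Both breeds ate the same ration in both phases, rolled barley with soya bean meal, molasses, minerals and vitamins, offered to appetite with a limited amount of grass silage. H1 fell in the growing stage and H2 in the finishing stage, and all steers ate grass silage, zero-grazed grass (the ZG phase, not analysed here) and grazed grass between them. Phase therefore ran together with age, body size, season and feeding history, which cannot be told apart. Ages at biopsy are not in the labels. CH is a late-maturing beef breed and HF a dairy breed, and age at the start of H1 was not matched between them. Most steers were sampled once: only 4 CH and 4 HF steers had a library in both phases.

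The liver makes most plasma proteins, including the acute phase proteins it releases in inflammation, and it handles glucose, fat, cholesterol, amino acids and foreign compounds. As cattle move from growth to finishing, muscle gain slows and fat deposition rises, and breeds of different maturity pass through that transition at different ages. A breed difference in the change (an interaction) is asked of each gene as the log2 fold change from H1 to H2 in CH minus the log2 fold change from H1 to H2 in HF. A positive difference means that H2 stood higher against H1 in CH than in HF.

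Reads counted on genes ranged from 9097695 to 47640205 a library. The hepatocyte and other cell type markers could not be checked as lists, because only 2 of 118 marker entries had a named identifier. The fibrinogen chain FGA, a liver-secreted protein, was at 5610 CPM (counts scaled to a common library size) or more in every library. In bulk tissue, fewer cells of a type and less RNA per cell cannot be told apart. The CH H2 library of steer 454 lay deep among the H1 libraries on the first principal component, with a score of -33.96, and that of steer 493 (also CH H2) lay farthest from them. The H2 libraries of steers 1661 (HF), 1484 and 364 (CH) scored -7.756, -6.934 and -4.597, at the edge of the H1 range, which ended at -4.298. The number 1797 is carried by a CH library in H1 and by an HF library in H2. Without steer 454, without steer 493, without both, or without both libraries numbered 1797, the count of genes called for a breed difference was the same as with them, and it is given next.

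No gene was called for a breed difference in the H1 to H2 change. Of 13403 genes tested with the quasi-likelihood test of edgeR at an adjusted P below 0.1, 0 had a positive and 0 a negative difference (0% called), and the smallest adjusted P was 0.9997. At an unadjusted P below 0.05 there were 326 genes, or 2.43% of those tested, 195 with a positive and 131 with a negative difference. That share is below the 0.05 expected where no gene differs between breeds. The DESeq2 Wald test also called 0 genes, with 437 of the 19563 genes it tested at an unadjusted P below 0.05. In limma-voom, 0 of 13403 genes were called with sample quality weights, with the steer as a block and without either. In that order, 342, 336 and 273 had an unadjusted P below 0.05. A P that misses the threshold does not show that the breeds changed alike, so the intervals of the differences are given below.

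The change itself was very wide in both breeds. In CH, 9397 genes (70.1% of those tested) were called between H1 and H2, 5070 higher in H2 (37.8%) and 4327 lower (32.3%). In HF, 8870 genes (66.2%) were called, 4587 higher (34.2%) and 4283 lower (32%). Genes called in both breeds numbered 7938, and 7936 of them moved in the same direction, 4144 up and 3792 down. A further 2391 genes were called in 1 breed only, 1459 in CH and 932 in HF, and 2155 of these had the same sign in the other breed. A gene called in 1 breed only is not shown to differ between breeds, and none of the 2391 was called for the difference. Across genes, which are not independent replicates, the changes in CH and HF had a Pearson correlation of 0.906 and a Spearman rank correlation of 0.912. Library composition also differed by phase. The 10 most abundant genes took a median of 26.3% of counts under H1 in each breed. Under H2 they took 30.4% in CH and 29.1% in HF. Median normalization factors (TMM) were 1.05 and 0.875 in CH and 1.09 and 0.95 in HF (H1, then H2). Its part in the change was not tested.

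The precision of the differences bounds what could have been missed. The median absolute change was 0.348 on the log2 scale in CH and 0.339 in HF, whereas the median absolute difference between breeds was 0.0948 and the median standard error of that difference 0.169. For 12009 genes (89.6%), the 95% interval of the difference lay within -1 and 1, that is, within a 2-fold difference either way. For 7875 genes (58.8%) it lay within -0.5 and 0.5. For the genes outside the wider bound, the interval reached past a 2-fold difference, so a difference of that size was within the interval.

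**Figure D1:**
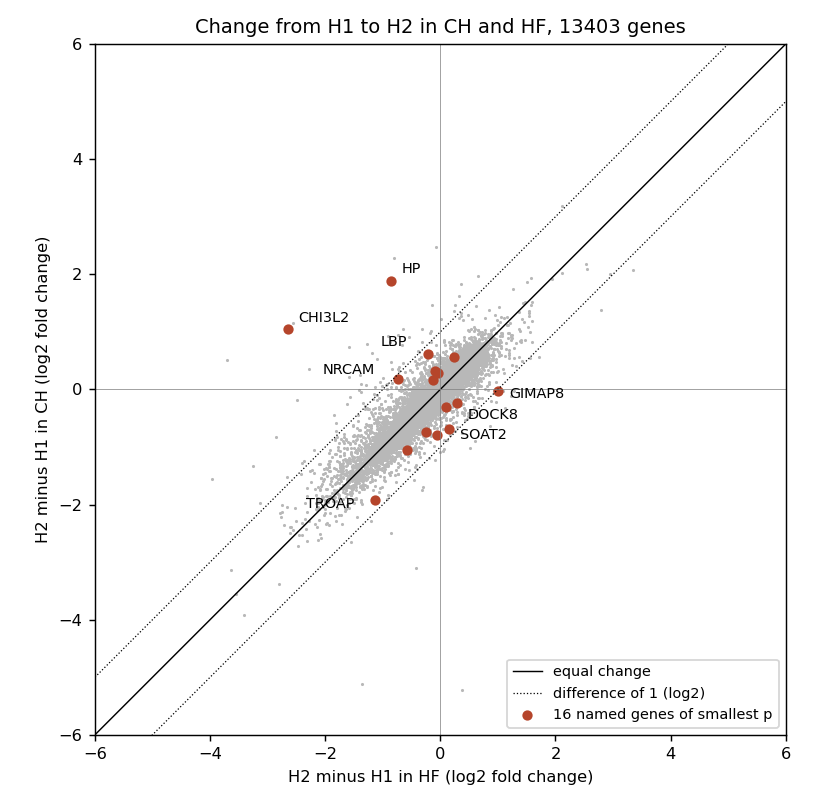
Each grey point is 1 of 13403 genes, with the log2 fold change from H1 to H2 in HF on the horizontal axis and in CH on the vertical axis. The red points are the 16 named genes of smallest P (8 positive, 8 negative), none of them called. Most points lie along the line of equal change (Pearson r 0.906), and CHI3L2 and HP stand farthest above it among the red points.

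Names were available for 327 identifiers, which the study had listed for differences between RFI groups, and 323 of them were tested. Of these, 213 were called between H1 and H2 in both breeds, 67 higher and 145 lower in both, and 1, DOCK8, in opposite directions. Over all 13403 genes, 7938 were called in both breeds, 4144 higher and 3792 lower, so the named genes leaned further towards lower levels. Another 38 were called in CH only, 17 in HF only and 55 in neither. For the difference between breeds, 12 of the 323 (3.72%) had an unadjusted P below 0.05, 4 positive and 8 negative. That share was above the 2.43% over all genes tested and, like it, below the 0.05 expected where no gene differs. Whether the named genes differ from the rest was not tested. The interval of the difference lay within -1 and 1 for 264 of the 323 named genes, against 12009 of all 13403. In the following, 98 of these genes are described in 9 groups by known function, and 0 of the 98 were called for the difference, as was so of all genes (0%). Changes and differences are log2 fold changes, given with ± their SE or with their 95% interval in brackets.

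Acute phase, complement and clotting genes formed the group with the highest median difference. Of 10 measured members, 9 had a positive and 1 a negative difference (55.7% of all genes tested were positive), and the median was 0.28, against 0.02 over all genes tested. It was positive in every other setting, from 0.046 in high RFI libraries alone to 0.41 in low RFI libraries alone, and between 0.177 and 0.494 when each library was left out. The H2 libraries of steers 419 (CH) and 1639 (HF) held ranks 1 and 2 of the 66 for HP, LBP, FGA and FGG, though not for every member. The signs of the members are therefore not independent. In CH, 6 members rose from H1 to H2, 1 fell and 3 were not called. In HF, 1 rose, 1 fell and 8 were not called. Over all genes, 37.8% rose and 32.3% fell in CH, and 34.2% rose and 32% fell in HF, and the counts of every group below are to be read against these shares.

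Fibrinogen, the clotting protein made from several chains, was among the most abundant messages. FGG, its gamma chain, had a lowest, median and highest level of 5780, 12400 and 17800 CPM under H1 and of 8200, 18400 and 32500 CPM under H2 in CH. In HF the same values were 8370, 12000 and 19300 CPM under H1 and 8260, 13100 and 40600 CPM under H2. In CH, 9 of 17 H2 libraries lay above every H1 library, in HF 1 of 13. FGG rose by 0.53 ± 0.15 in CH (adjusted P = 0.00195) and its change of 0.25 ± 0.17 in HF was not called, but the difference of 0.29 had an interval of -0.17 to 0.75 and was not called either. FGA gave 0.36 ± 0.14 in CH, 0.09 ± 0.15 in HF and a difference of 0.27 (-0.15 to 0.68).

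HP, which codes for haptoglobin, the plasma carrier of free haemoglobin, differed far more between steers than between phases. In CH its lowest, median and highest levels were 28.3, 126 and 2850 CPM under H1 and 26.3, 193 and 26600 CPM under H2. The HF values were 35.7, 177 and 7540 CPM under H1 and 25.8, 157 and 7970 CPM under H2. The groups overlapped over almost their whole range, and libraries above 1000 CPM occurred in all of them, 3 of 20, 4 of 17, 6 of 16 and 2 of 13 for CH H1, CH H2, HF H1 and HF H2. The fitted change was 1.89 ± 0.89 in CH (adjusted P = 0.0578) and -0.86 ± 0.98 in HF, with a difference of 2.75 (0.16 to 5.35, unadjusted P = 0.038). Without the CH H2 library of steer 419, the highest of all at 26600 CPM, the difference was 0.69. Without the HF H2 library of steer 1639, the next highest at 7970 CPM, it was 4.495. The medians of the 4 groups, by contrast, lay between 126 and 193 CPM.

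The same libraries were high in some other acute phase genes. LBP, whose product binds bacterial lipopolysaccharide, reached its highest level, 1320 CPM, in the CH H2 library of steer 419 and its next highest, 944 CPM, in the HF H2 library of steer 1639. Its group medians were 148 and 164 CPM in CH and 166 and 112 CPM in HF (H1, then H2). The LBP difference of 0.84 (-0.11 to 1.79) became 0.39 without steer 419 and 1.34 without steer 1639. SERPINA3, a plasma protease inhibitor, had a change of -0.05 ± 0.25 in CH and fell by 0.59 in HF (SE 0.28, adjusted P = 0.0657), with a difference of 0.55 (-0.20 to 1.30). Steer 419 also had the highest SERPINA3 level, 2040 CPM. The serum amyloid gene M-SAA3.2 was low, with group medians from 0.239 to 0.701 CPM, and its difference of 0.43 had the wide interval of -1.71 to 2.58. Steers 419 and 1639 ranked 14 and 6 of the 66 libraries for it. FETUB, which codes for the protease inhibitor fetuin B, had the negative value of the group, -0.43 (-1.01 to 0.14), after a fall of 0.66 ± 0.19 in CH on the log2 scale and an uncalled change of -0.22 ± 0.22 in HF.

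CHI3L2, which codes for a secreted chitinase-like protein, had the smallest P of all named genes with a positive difference, and its value came from few libraries. Its lowest, median and highest levels were 0.489, 1.98 and 3.80 CPM (CH H1), 0.325, 0.962 and 42.4 CPM (CH H2), 0.328, 1.45 and 110 CPM (HF H1) and 0.36, 1.07 and 5.45 CPM (HF H2). Only 2 of the 66 libraries exceeded 10 CPM, that of steer 5632 under H1 in HF (110 CPM) and that of steer 419 under H2 in CH (42.4 CPM). The difference was 3.70 (1.71 to 5.69, unadjusted P = 0.000438), from an uncalled change of 1.05 ± 0.64 in CH and a fall of 2.65 ± 0.82 on the log2 scale in HF. Without steer 5632 it was 1.07. The sign turned to -0.51 with the DESeq2 Wald test and to -0.12 in limma-voom with quality weights.

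**Figure D2:**
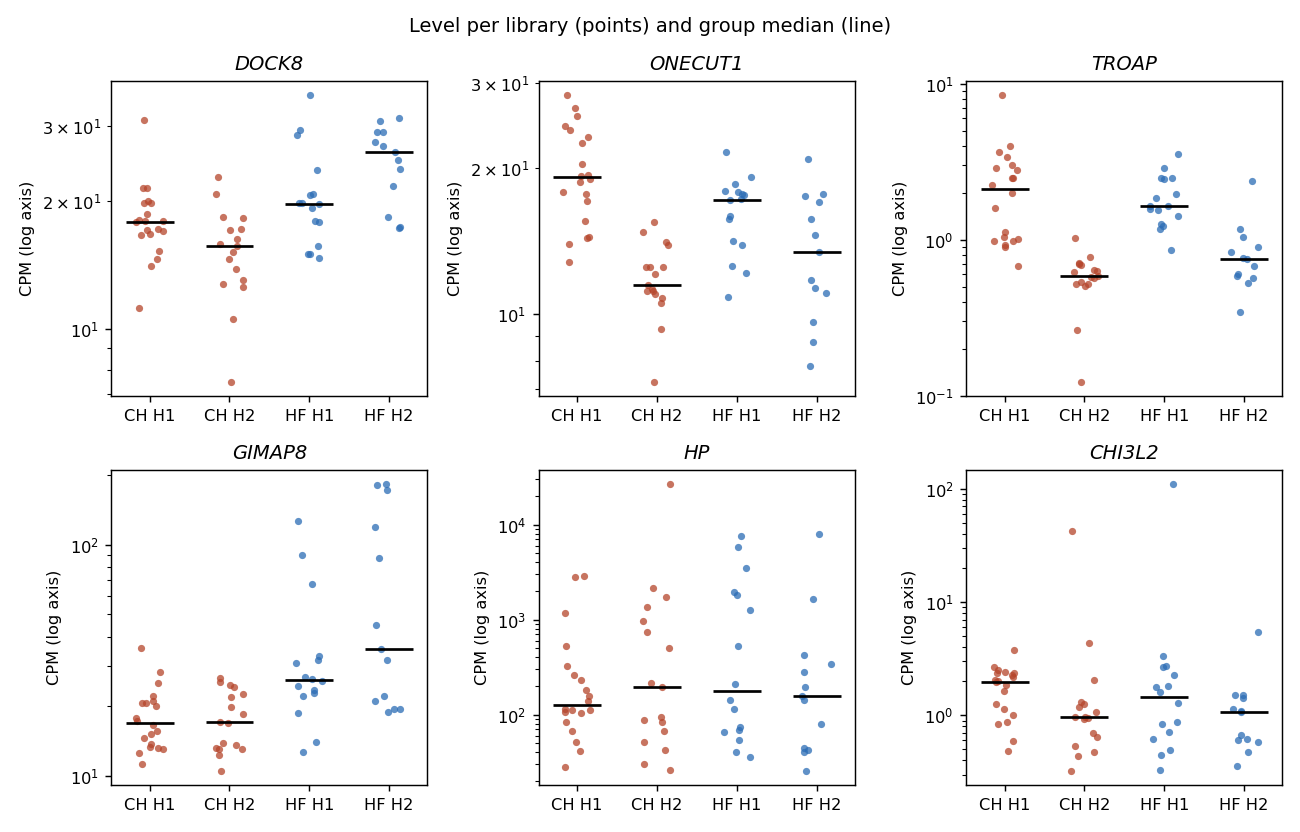
Level of 6 genes in each of the 66 libraries (points, CPM on a log axis) with the median of each group (black line), for CH (red) and HF (blue) under H1 and H2. DOCK8 medians went from 17.9 to 15.6 CPM in CH and from 19.7 to 26 CPM in HF, and the highest HP and CHI3L2 points, up to 26600 and 110 CPM, stand apart from overlapping groups.

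Genes of cell division and DNA replication leaned the other way. Of 21 measured members, 18 had a negative and 3 a positive difference, against 55.7% of all genes positive, with a median of -0.19. The CH H1 library of steer 950 had the highest level of CKAP2 (13.7 CPM), TROAP (8.44 CPM), BUB1 and BUB1B (6.94 CPM each). It was also highest for several, though not all, other members, so the signs are not independent. The median stayed between -0.265 and -0.167 when each library was left out. In CH, 15 fell from H1 to H2, 3 rose and 3 were not called. In HF, 10 fell, 1 rose and 10 were not called, against 32.3% and 32% of all genes lower in CH and HF. All 10 that fell in HF also fell in CH. The median change was -0.74 in CH and -0.22 in HF. In libraries of low RFI steers alone the median difference was -0.58, and in those of high RFI steers alone it was 0.10, so the sign of the group turned between these subsets.

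TROAP, whose product takes part in building the mitotic spindle, showed the widest gap between breeds in this group. Its lowest, median and highest levels in CH were 0.684, 2.12 and 8.44 CPM under H1 and 0.123, 0.585 and 1.04 CPM under H2, and 12 of 17 H2 libraries lay below every H1 library. In HF they were 0.857, 1.66 and 3.55 CPM under H1 and 0.347, 0.757 and 2.39 CPM under H2, and 9 of 13 H2 libraries lay below every H1 library. TROAP fell by 1.93 on the log2 scale in CH and by 1.14 in HF, and the difference was -0.79 (-1.53 to -0.06, unadjusted P = 0.0346). CKAP2, a spindle microtubule protein, fell by 0.80 in CH (SE 0.22) while its change of -0.06 ± 0.25 in HF was not called, a difference of -0.74 (-1.40 to -0.08). RAD54L, a DNA repair enzyme of homologous recombination, gave -0.31 ± 0.13 in CH (adjusted P = 0.0391) and 0.10 ± 0.15 in HF, a difference of -0.41 (-0.81 to -0.01). TROAP and RAD54L had values near 0 or of the other sign in high RFI steers alone, 0.02 and 0.08, while CKAP2 kept its sign in every setting tried.

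Other members changed by nearly the same amount in both breeds. TONSL, needed to restart stalled replication forks, fell by 1.59 on the log2 scale in CH and by 1.53 in HF. CCND1, the cyclin that carries growth signals into the cell cycle, fell by 1.27 and 1.18, and MCM2, a subunit of the replicative helicase, fell by 1.23 and 1.08. The intervals of the differences were -0.65 to 0.52 for TONSL, -0.68 to 0.49 for CCND1 and -0.72 to 0.42 for MCM2. The centriole gene SASS6 rose in both breeds, by 0.40 and 0.54. UHRF1, which maintains DNA methylation after replication, had a difference of -0.74 with an interval of -2 to 0.51, the widest in the group.

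Among 13 genes of immune cells, 10 had a negative and 3 a positive difference, with a median of -0.13. That median was -0.339 in low RFI libraries alone and 0.047 in high RFI libraries alone. It was -0.234 without the CH H2 library of steer 1484 and -0.084 without that of steer 493. In CH, 3 rose, 4 fell and 6 were not called, and in HF 5 rose, 3 fell and 5 were not called. DOCK8, which activates small GTPases in leukocytes and is needed for their migration, was called in opposite directions. Its lowest, median and highest levels in CH were 11.2, 17.9 and 31 CPM under H1 and 7.49, 15.6 and 22.7 CPM under H2. HF steers had 14.6, 19.7 and 35.4 CPM under H1 and 17.3, 26 and 31.3 CPM under H2. All groups overlapped. DOCK8 fell by 0.24 ± 0.11 on the log2 scale in CH (adjusted P = 0.0404) and rose by 0.29 ± 0.12 in HF (adjusted P = 0.0305). The difference, -0.53 (-0.85 to -0.21), had an unadjusted P of 0.00132 but did not pass the adjusted threshold. It kept its sign in every setting, between -0.62 and -0.42, and when each library was left out, between -0.59 and -0.48.

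GIMAP8, a GTPase of lymphocytes, had a level that was spread widely in HF only. In CH its lowest, median and highest levels were 11.2, 16.9 and 35.6 CPM under H1 and 10.5, 17 and 26.5 CPM under H2. In HF they were 12.7, 26 and 127 CPM under H1 and 18.9, 35.3 and 183 CPM under H2. A level above 40 CPM was seen in 0 of 37 CH libraries, in 3 of 16 HF libraries under H1 and in 6 of 13 under H2. That cut was chosen after the values were seen. GIMAP8 was graded across it, with 35.6 CPM the highest value below and 44.8 CPM the lowest above. The HF steers 2101 and 5632, sampled in both phases, were above 40 CPM each time, at 90.4 and 182 CPM and at 67.5 and 119.5 CPM. GIMAP8 rose by 1.00 ± 0.31 in HF (adjusted P = 0.0046) and its change in CH was -0.02 ± 0.28, a difference of -1.02 (-1.85 to -0.19). Without the HF H2 library numbered 1797, one of the highest at 182.7 CPM, the difference was -0.81. The related GIMAP4 was either low or high in a library, at 14.1 CPM or below or at 52.3 CPM or above. Libraries above 30 CPM numbered 10 of 20 for CH H1, 5 of 17 for CH H2, 14 of 16 for HF H1 and 11 of 13 for HF H2. Each of the 8 steers with libraries in both phases was on the same side in both. The GIMAP4 difference was -0.71 with an interval of -2.36 to 0.95.

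The remaining immune genes were close between breeds or imprecise. UNC13D, required for the release of cytotoxic granules, fell by 1.4 on the log2 scale in CH and by 1.18 in HF, and PTPRCAP, a partner of the leukocyte phosphatase CD45, fell by 1.54 and 1.44. STAP1 and DOCK11 rose in both breeds, by 0.30 and 0.57 in CH and by 0.31 and 0.44 in HF. CLEC12A, an inhibitory receptor of myeloid cells, had the highest difference of the group, 0.41 (-0.04 to 0.87), from a rise of 0.32 ± 0.15 in CH and an uncalled -0.09 ± 0.17 in HF. Blood and immune cell content of the biopsies was not measured by a marker list, and its part in these values was not tested.

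Over all 66 libraries, differences of lipid genes were centred near 0. Their median was 0.11 in low RFI libraries alone and -0.195 in high RFI libraries alone, so its sign differed between these subsets. Of 11 measured members, 5 had a positive and 6 a negative difference, with a median of -0.03, which was -0.145 without the CH H2 library of steer 454 and 0.037 without the HF H2 library numbered 1797. SOAT2, the liver and intestinal enzyme that esterifies cholesterol, had lowest, median and highest levels of 5.13, 11.5 and 31.3 CPM under H1 and 1.4, 8.36 and 14.8 CPM under H2 in CH. HF levels were 1.68, 9.79 and 16.9 CPM under H1 and 2.32, 10.7 and 20.6 CPM under H2. SOAT2 fell by 0.68 ± 0.24 on the log2 scale in CH (adjusted P = 0.0108), its change in HF was 0.15 ± 0.27, and the difference was -0.83 (-1.54 to -0.12, unadjusted P = 0.0224). The enzyme of the last step of triglyceride synthesis, DGAT2, was not called in either breed, and its difference was 0.16 (-0.32 to 0.64). G0S2, an inhibitor of fat mobilisation, fell by 0.96 in CH and by 0.74 in HF. NR0B2, a repressor of bile acid synthesis, fell by 0.92 and 1.09. ACOT12, which cleaves acetyl-CoA, rose by 0.36 in CH and 0.35 in HF with a difference of 0.00 (-0.27 to 0.28). CIDEC, a lipid droplet protein, was too variable for a useful bound, with a difference of -0.05 and an interval of -1.35 to 1.25.

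Detoxification genes had differences from -0.09 to 0.18. All 8 measured members had an interval within -1 and 1, as had 89.6% of all genes tested, and the median difference was 0.05, or -0.013 without the CH H2 library of steer 454. In CH 6 rose and 2 fell, and in HF 5 rose, 2 fell and 1 was not called. PRDX6, a peroxide-reducing enzyme, had median levels of 161 and 288 CPM in CH and of 161 and 268 CPM in HF (H1, then H2), and in HF the H1 and H2 libraries did not overlap. It rose by 0.77 ± 0.08 in CH and by 0.75 ± 0.09 in HF, and the difference of 0.02 had an interval of -0.22 to 0.27. MAOB, which oxidises amines, rose by 0.48 and 0.55 (difference -0.28 to 0.13). CYP3A5, a drug-oxidising cytochrome, rose by 0.65 and 0.47 (difference -0.13 to 0.49). OSGIN1, an oxidative stress response gene, fell by 1.35 in CH and by 1.28 in HF.

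Enzymes of amino acid, one-carbon and urate breakdown had 11 of 11 intervals within -1 and 1 (89.6% of all genes) and a median difference of 0.09, which was -0.059 without the CH H2 library of steer 454. The widest interval was that of ASPG, an asparaginase, at -0.72 to 1. Called in both breeds were 3 that rose and 4 that fell, against 4144 and 3792 of all 13403 genes tested. AGXT, which detoxifies glyoxylate, fell by 1.09 in CH and by 1.01 in HF. SARDH, which oxidises sarcosine, fell by 0.99 and 1.18, and ALDH4A1, of proline breakdown, fell by 0.95 and 0.86. GOT2, the mitochondrial aspartate aminotransferase, rose by 0.38 and 0.29, with a difference of 0.09 (-0.12 to 0.30). BHMT2, which remethylates homocysteine, was not called in either breed and its difference was -0.11 (-0.60 to 0.37).

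The 7 protein synthesis genes all had small positive differences, from 0.07 to 0.15 with a median of 0.10, against 55.7% of all genes positive. In high RFI steers alone that median was -0.08, and without the CH H2 library of steer 454 it was 0.023. In CH 5 rose and 1 fell, and in HF 3 rose and 1 fell. EIF4B, an initiation factor, rose by 0.69 ± 0.09 in CH and by 0.58 ± 0.10 in HF. RPL13, a ribosomal protein gene, fell by 0.56 and 0.67. Ribosomal protein genes, GIMAP genes, SERPINA3, M-SAA3.2 and CYP3A5 have close copies in the genome, and how reads were divided among such copies is uncertain.

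**Figure D3:**
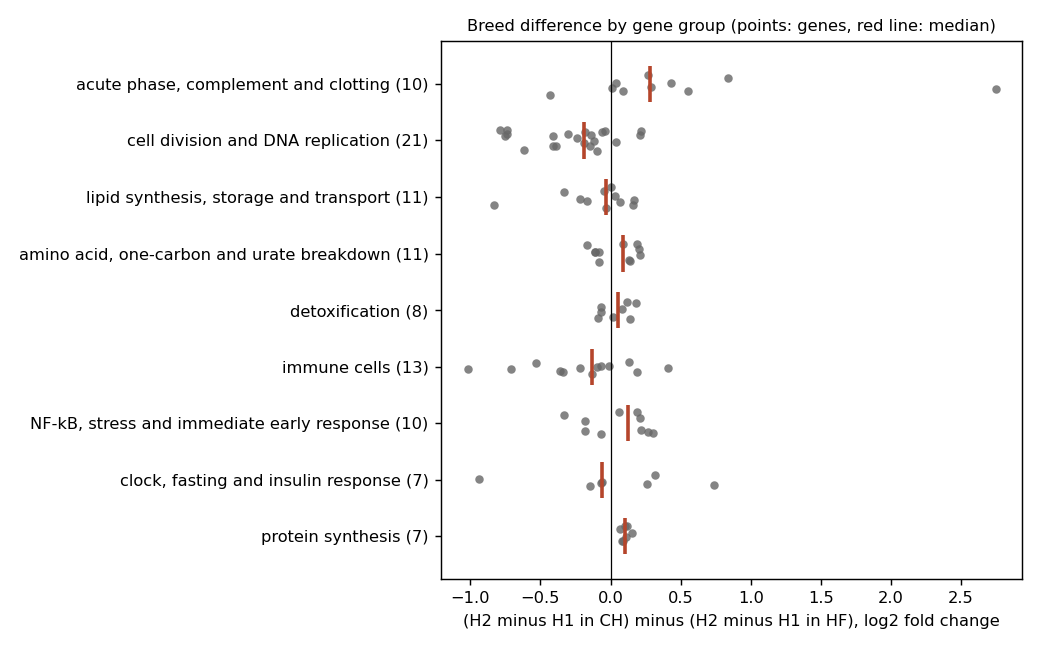
Difference between breeds in the H1 to H2 change (horizontal axis, log2 fold change) for the 98 genes of 9 groups (grey points, number of genes in brackets), with the median of each group as a red line. Medians range from -0.19 for cell division to 0.28 for the acute phase group, whose point farthest to the right is HP at 2.75. No point was called.

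Stress, clock and insulin response genes showed a few wide values. Of 10 genes of NF-kB, stress and immediate early response, 6 had a positive and 4 a negative difference, with a median of 0.13. That median turned to -0.055 in low RFI libraries alone and was 0.197 in high RFI libraries alone. It was 0.013 in limma-voom with the steer as a block and 0.04 without the HF H1 library of steer 5608. All 10 intervals lay within -1 and 1 (89.6% of all genes). ATF5, a transcription factor of the amino acid and protein stress response, fell by 1.45 in CH and by 1.64 in HF. GADD45G, a growth arrest gene, fell by 1.28 and 1.10, and JUN, an immediate early transcription factor, fell by 0.58 and 0.40. TNFAIP3, an inhibitor of NF-kB, fell by 0.37 ± 0.13 in HF and its change of -0.11 ± 0.11 in CH was not called, with a difference of 0.27 (-0.08 to 0.61).

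Of 7 clock, fasting and insulin response genes, 3 had a positive and 4 a negative difference, with a median of -0.06, which was 0.144 without the HF H2 library of steer 2071. IRS2, the insulin receptor substrate that is switched on in fasting liver, had lowest, median and highest levels of 1.5, 4.4 and 12.2 CPM under H1 and 0.117, 1.21 and 6.35 CPM under H2 in CH. In HF they were 1.39, 4.81 and 11.5 CPM under H1 and 0, 0.509 and 2.25 CPM under H2. H2 libraries below every H1 library numbered 12 of 17 in CH and 11 of 13 in HF. IRS2 fell by 2.01 ± 0.31 on the log2 scale in CH and by 2.75 ± 0.38 in HF, with a difference of 0.74 (-0.23 to 1.71). NR1D1, a repressor of the circadian clock, rose by 0.70 and 0.76, and PPP1R3C, which promotes glycogen storage, rose by 0.66 and 0.73. NOCT, a rhythmically expressed gene, rose by 0.94 ± 0.41 in HF (adjusted P = 0.0446) and its change in CH was 0.00 ± 0.37, a difference of -0.94 (-2.05 to 0.17). NFIL3, a transcription factor that represses clock-controlled genes, rose by 0.28 ± 0.11 in CH and had -0.04 ± 0.12 in HF, a difference of 0.32 (-0.01 to 0.65).

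A few named genes outside these groups had small P. ONECUT1, a transcription factor of hepatocyte and bile duct differentiation, had lowest, median and highest levels of 12.8, 19.1 and 28.3 CPM under H1 and 7.24, 11.5 and 15.5 CPM under H2 in CH. For HF the levels were 10.8, 17.2 and 21.6 CPM under H1 and 7.80, 13.5 and 20.9 CPM under H2. H2 libraries below every H1 library of the breed numbered 13 of 17 in CH and 3 of 13 in HF. ONECUT1 fell by 0.74 ± 0.10 on the log2 scale in CH and by 0.25 ± 0.12 in HF (adjusted P = 0.0612), and the difference was -0.49 (-0.80 to -0.18, unadjusted P = 0.00214). It stayed between -0.57 and -0.30 in every setting and between -0.54 and -0.42 when each library was left out.

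RAC1, a small GTPase of the cytoskeleton, had medians of 42.9 and 49.8 CPM in CH and of 52.1 and 51 CPM in HF (H1, then H2). It rose by 0.16 ± 0.07 in CH (adjusted P = 0.038) and gave -0.12 ± 0.08 in HF, a difference of 0.28 (0.07 to 0.49). In high RFI steers alone the RAC1 difference was -0.02. JAM2, a junctional adhesion molecule of endothelium, rose in both breeds, by 0.57 ± 0.10 in CH and 0.23 ± 0.12 in HF, a difference of 0.34 (0.02 to 0.66). PLPPR2, a membrane protein of the lipid phosphatase family, fell by 1.06 in CH and by 0.58 in HF on the log2 scale, a difference of -0.48 (-0.96 to -0.01). NRCAM, a cell adhesion molecule best known from neurons, had medians of 1.82 and 2.54 CPM in CH and of 2.91 and 0.978 CPM in HF. Its change was 0.18 ± 0.33 in CH and -0.73 ± 0.38 in HF (adjusted P = 0.0921), a difference of 0.91 (-0.09 to 1.92), which was 1.452 without the HF H2 library of steer 1639.

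**Figure D4:**
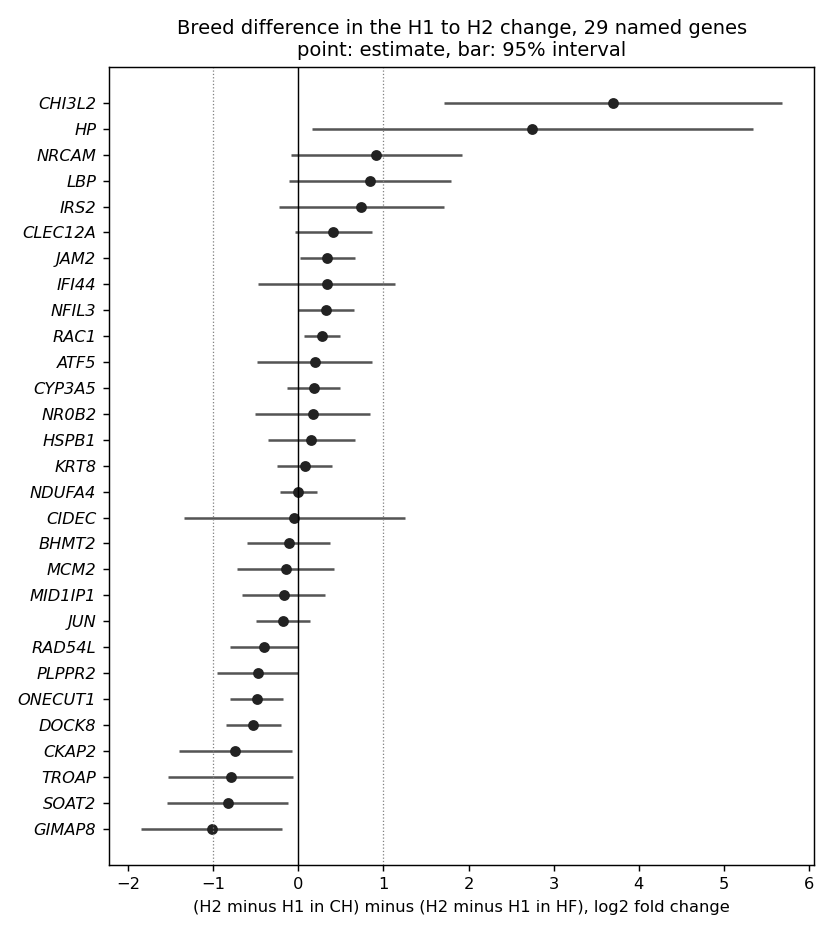
Difference between breeds in the H1 to H2 change (horizontal axis, log2 fold change) for 29 named genes, with the estimate as a point and its 95% interval as a bar, sorted by size. The interval of 4 genes with a positive value (CHI3L2, HP, JAM2 and RAC1) and of 8 with a negative value lies clear of 0 before adjustment, and none was called. The genes shown were chosen by small P.

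The smallest P of all genes tested belonged to an unnamed gene, and 4 unnamed genes, 2 in each direction, were chosen after their values were seen. ENSBTAG00000008568 had an unadjusted P of 0.000237 for a difference of -2.68 (-4.05 to -1.30). Its medians were 1.06 and 0.127 CPM in CH and 0.423 and 0.0802 CPM in HF (H1, then H2), so it was read near the limit of detection under H2 in both breeds, and 2 of 13 HF H2 libraries lay above every HF H1 library. ENSBTAG00000032954 had medians of 5.44 and 3.06 CPM in CH and of 2.81 and 5.15 CPM in HF, and it rose by 1.13 ± 0.30 in HF while its change of -0.33 ± 0.27 in CH was not called, a difference of -1.46 (-2.26 to -0.66). ENSBTAG00000007127, with medians under 1 CPM in each group, was the other gene called in opposite directions. It rose by 0.38 ± 0.19 in CH (adjusted P = 0.0781) and fell by 0.72 on the log2 scale in HF (SE 0.23, adjusted P = 0.00658), a difference of 1.10 (0.49 to 1.70).

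ENSBTAG00000009583 was either low or clearly present in a library. All values lay at 2.19 CPM or below or at 9.78 CPM or above. Libraries above 5 CPM numbered 6 of 20 for CH H1, 7 of 17 for CH H2, 2 of 16 for HF H1 and 0 of 13 for HF H2. The fitted difference was 4.22 (1.73 to 6.71, unadjusted P = 0.00124), with changes of 0.52 ± 0.62 in CH and -3.70 ± 1.07 in HF. The 8 steers with libraries in both phases were all below 5 CPM in both, so they do not show whether a high level is kept.

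The 8 steers sampled in both phases allowed the change to be compared within animals. With 4 CH and 4 HF steers, the two-sided exact permutation test over 70 splits cannot go below P = 0.0286. Over 29 named genes, 0 had P below 0.05, the lowest was 0.0571 and the smallest adjusted P was 0.644 (exact permutation test, Benjamini-Hochberg). The test is not independent of the main fit, which held the same libraries. That fit was also used to choose these genes, by smallest P in a direction or within a gene list. The within-steer difference had the same sign as the main fit in 19 of the 29 genes.

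NRCAM had the lowest P. Its within-steer changes (log2 CPM, H2 minus H1) were -0.43, 0.42, -0.39 and -0.90 in CH and -1.22, -0.49, -1.26 and -1.66 in HF, a difference of 0.83 (exact permutation P = 0.0571). Every HF steer went down, and 3 of 4 CH steers did. GIMAP8 went up in 4 of 4 HF steers, by 0.17, 1.00, 0.66 and 0.82, while the CH steers gave 0.23, 0.31, -0.09 and 0.00, a difference of -0.55 (exact permutation P = 0.0857). TROAP was lower under H2 in all 8 steers, with changes of -1.55, -1.42, -0.53 and -1.72 in CH and of -0.96, -0.90, -0.30 and -0.77 in HF. DOCK8 gave -0.14, -0.30, -0.47 and 0.22 in CH and -0.04, 0.28, 0.18 and -0.02 in HF, a difference of -0.27 (exact permutation P = 0.143). HP ran from -5.23 to 2.80 among the CH steers and from -5.25 to 4.55 among the HF steers, with a difference of -1.26. That sign is opposite to the fitted HP difference of 2.75. The breeds overlapped for each of these 5 genes.

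**Figure D5:**
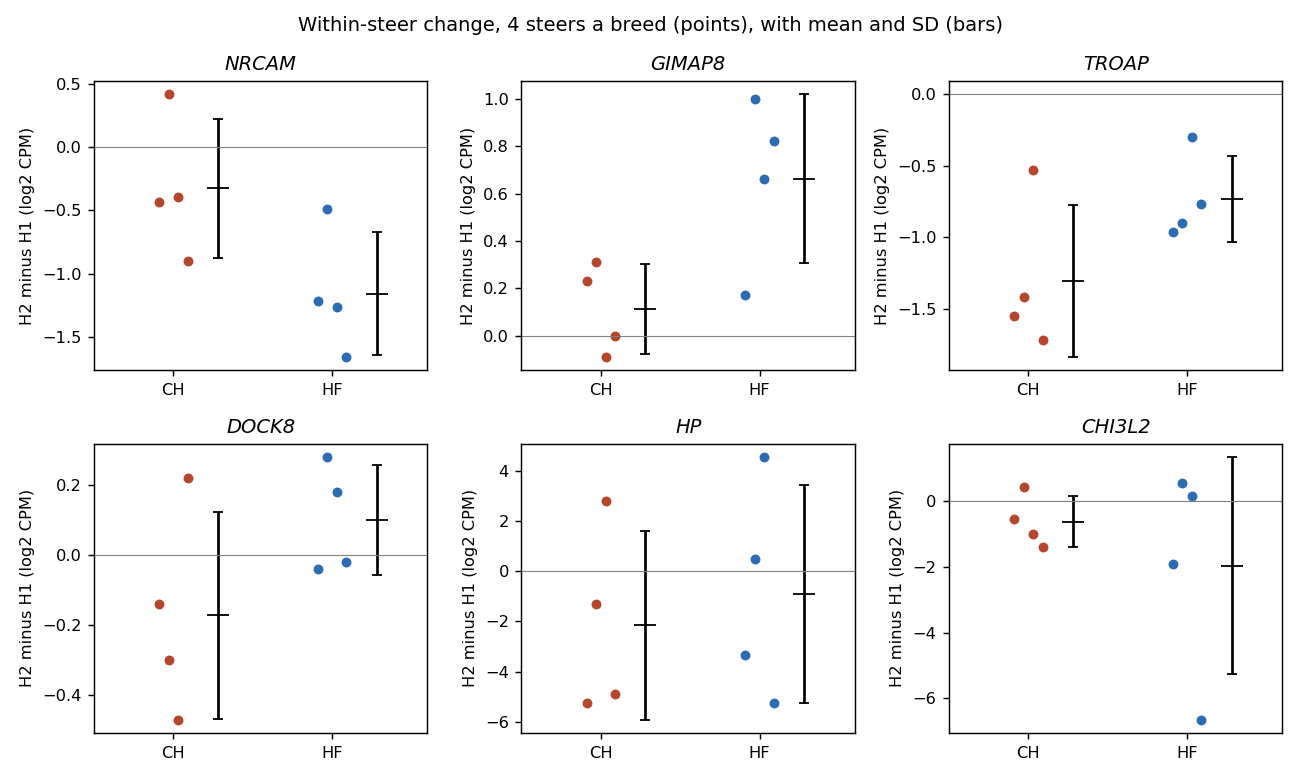
Change from H1 to H2 (vertical axis, log2 CPM) within 4 CH (red) and 4 HF (blue) steers for 6 genes, with the mean and SD of each breed as a black bar. All 8 steers lie below 0 for TROAP, the HF steers lie below 0 for NRCAM and above 0 for GIMAP8, and the HP steers spread from -5.25 to 4.55.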

How the data were processed

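Liver mRNA was read by the authors as single-end reads from stranded libraries, trimmed, aligned by STAR (2.5.3a in the submitters' processing notes) to the UMD3.1 cattle assembly and tallied per Ensembl gene by the same tool. The authors deposited raw counts, with no normalization, which were used as deposited. The column of STAR counts taken (strand) is not given in the sources used here. Trimming, alignment and counting are part of these values and were not varied, and genes that share reads with copies may be misjudged.

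The 66 libraries labelled H1 or H2 were fitted together in edgeR 4.0.16 (R 4.3.3) with TMM normalization, filterByExpr, robust quasi-likelihood dispersions and RFI group as covariate. The study itself compared RFI groups within breed and phase with DESeq2, and its threshold, a Benjamini-Hochberg adjusted P below 0.1, was kept. The contrasts were H2 minus H1 in CH, H2 minus H1 in HF, and their difference. The SE is the absolute log2 fold change divided by the root of F. CPM use TMM-scaled library sizes. The CPM levels above which libraries were counted were chosen after the values were seen. The scripts were tested on simulated data. The members and lists were chosen with earlier results of these data known.

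Named genes are the 8 of smallest P in each direction (none was called) and the member of smallest P of each gene list, 29 in all. Gene names came from the study's supplementary gene list, which pairs 327 identifiers with names because they differed between RFI groups in some comparison. It covers 29 of 477 entries of the 29 pathway and marker lists, and no list to 80%, so list results are void, and 98 named genes were grouped by function after the fit was seen. Some named genes are not reported here. Gene positions and sequences were not used here.

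Pairing of libraries comes from the steer numbers in the labels. Of 57 numbers, 8 occur in both phases in the same breed, and for 4 of them the RFI group differed between phases. Deviations from the group means of the 2 libraries of a steer correlated at 0.0771 to 0.508 (median 0.332), against a median of -0.00013 over 540 other pairs. Within-steer changes used log2(CPM + 0.5), with 2 as the alternative pseudocount. No 2 libraries of a group agreed within sampling noise. Nothing in the labels names a sequencing batch. Alternatives were the DESeq2 1.42.0 Wald test, DESeq2 size factors, other filters, thresholds, covariates and subsets of libraries, limma-voom (limma 3.58.1) with and without the steer as replicate block, each library left out in turn and, chosen after seeing the data, the fits without steers 454 and 493. Figures were drawn with Python 3.11.15 and matplotlib 3.10.9.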

Additional observations from a re-analysis of the deposited data

Results flagged for a closer look

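Within-steer changes of the 29 named genes were examined in 58 groups of 4 steers for a value far from the other 3, and 3 were found. Chance gives about 1 in 20 such groups. The change in MCM2 of the HF steer 2220 was -1.45 on the log2 CPM scale, against -0.22 to -0.13 in the other HF steers. The change in HSPB1, a small heat shock protein, of the same steer was -2.29, against -0.56 to -0.45. The change in RAC1 of the CH steer 307 was -0.44, against 0.10 to 0.17 in the other CH steers. In none of the 29 genes did all steers of a breed move one way and all steers of the other breed the opposite way.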

How the results depend on the processing

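No gene was called for the breed difference under any of 19 other settings or in any of 66 fits that each left out 1 library. Genes called between H1 and H2 stayed within 1.5 times the values reported, between 9045 (without the CH H2 library of steer 493) and 9815 (without that of steer 454) in CH and between 8440 and 9037 in HF over the fits that each left out 1 library, and between 6591 and 10072 in CH and 6038 and 9493 in HF over the other settings. In limma-voom with a replicate block for the steer, 0 genes were called for the difference (336 at an unadjusted P below 0.05, against 273 without the block), 9416 in CH and 8948 in HF, and the block changed no call of the difference.

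Of 543 values of the 29 named genes under these settings, 31 turned their sign, in 16 genes, and 13 genes kept it in every fit. Low RFI libraries alone gave -0.29 for ATF5, 0.201 for NDUFA4, 0.176 for MID1IP1 and -0.078 for IRS2. High RFI libraries alone gave 0.319 for CIDEC, 0.017 for TROAP, -0.02 for RAC1, -0.073 for CYP3A5, 0.305 for MCM2, -0.244 for NR0B2, -0.079 for NFIL3 and 0.083 for RAD54L. CHI3L2 was -0.511 with DESeq2 and -0.12 with quality weights, IFI44 -0.519 with quality weights, -0.398 with the block and -0.385 in limma-voom without either. CIDEC was 0.01 without the RFI covariate, 0.014 without the libraries numbered 1797 and 0.016 with 1 library per steer. NDUFA4 stayed near 0, at 0 without a filter, 0.002 with 8 groups, 0.015 without 1797, 0.036 with 1 library per steer, 0.012 with library size as covariate, 0.016 with the block and 0.007 without it. BHMT2 was 0.185 with 1 library per steer and 0.073 with quality weights, ATF5 -0.018 with the block, and HSPB1 -0.005 without steer 454. Each library left out in turn moved CIDEC between -1.208 and 0.397, NDUFA4 between -0.037 and 0.029, HSPB1 between -0.005 and 0.27 and IFI44 between -0.30 and 0.404, the sign of the last turning without steer 419. The cause of these shifts was not tested. In low RFI libraries alone the median difference was -0.58 for cell division, -0.257 for amino acid breakdown and 0.344 for protein synthesis, and in high RFI libraries alone it was -0.077 for protein synthesis. How far depth limits the intervals of low genes was not tested.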

Other observations

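The 2 libraries numbered 1797, a CH library under H1 and an HF library under H2, were compared in 3 genes chosen after their values were seen. ENSBTAG00000009583, low or high by library, was at 19.3 CPM in the first and 0.0445 CPM in the second, and no steer with libraries in both phases had the high level, so no comparison with them is possible. GIMAP4, also low or high by library, was on the high side in both, at 52.3 and 326 CPM. GIMAP8, which was graded, was at 21.05 CPM in the first and 182.7 CPM in the second. Whether the number stands for 1 or 2 animals cannot be told from the labels. The count of genes called for the breed difference was 0 with and without these libraries.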
